A study of Homo sapiens with 6 samples.

Results

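Antisense long noncoding RNAs (lncRNAs) are transcripts made from the DNA strand opposite to that of another gene, and a symbol that ends in -AS1 names the first such RNA assigned to that gene. In TC28a2 cells, an immortalized human chondrocyte line, 191 of the 1127 genes with an -AS1 symbol held at least 10 raw counts in at least 3 of the 6 samples, and these 191 were followed here. Each was set beside the gene whose symbol precedes -AS1, its partner gene, which was present in the count table for 187 of them. The cells had been treated for 24 hours either with the solvent DMSO (n = 3) or with 2 μM mocetinostat (n = 3), an inhibitor of the histone deacetylases (HDACs) of class I. The study describes the samples of a condition as independent experiments of 1 cell line, in which fewer cells carrying an RNA and less RNA per cell cannot be told apart.

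Antisense RNAs arise in several ways. Many start next to the promoter of a coding gene and are transcribed away from it, since most promoters of the CpG-rich kind can initiate transcription in both directions. Others start inside or beyond the 3′ end of the coding gene and run back across it, and some span it whole. Most are short-lived and are degraded by the nuclear RNA exosome. A few, such as *OIP5-AS1* and *CDKN2B-AS1*, have been studied on their own as regulators of mRNA stability, microRNA availability, or chromatin. HDACs remove acetyl groups from histone tails, and their inhibition changes transcription from a large number of promoters, coding and noncoding.

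Total counts per sample lay between 1619344 and 11031132, with deeper libraries from DMSO-treated cells (11031132, 4873426, and 6926619) than from mocetinostat-treated cells (5089542, 1619344, and 2417199). The count rule therefore leaned toward RNAs present in DMSO-treated cells. A level of 10 counts was reached in all 3 DMSO-treated samples by 155 of the 191 RNAs and in all 3 mocetinostat-treated samples by 73, and no RNA reached it in mocetinostat-treated samples alone while 20 reached it in DMSO-treated samples alone. The chondrocyte markers *COL2A1*, *ACAN*, *SOX9*, *COMP*, *HAPLN1*, *MATN3*, *COL9A1*, and *COL11A1* summed to between 111 and 136 CPM (counts per 1000000 counts, TMM-scaled) with DMSO and between 246 and 283 CPM with mocetinostat, and 5 of the 8 held at least 10 counts in a DMSO-treated sample. Of the chondrocyte sum, *SOX9* alone held between 95.0 and 121 CPM with DMSO and between 161 and 188 CPM with mocetinostat. Fibroblast markers, led by *COL1A1*, summed to between 4584 and 5521 CPM and between 4016 and 4394 CPM. Within that sum, *COL3A1* lay between 501 and 572 CPM and then between 198 and 214 CPM, and *PDGFRB* was also lower with mocetinostat. *LUM* was higher, between 1.45 and 2.79 CPM and then between 11.7 and 16.0 CPM. Markers of 4 other cell types were measured in the same way. Epithelial markers, mainly keratins, held between 895 and 1077 CPM with DMSO and between 1915 and 1965 CPM with mocetinostat, and neuronal markers between 8.65 and 14.9 CPM and between 99.6 and 121 CPM. Endothelial markers lay between 4.95 and 7.04 CPM and between 16.0 and 22.5 CPM, through *PECAM1* and *VWF*. *CDH5* lay between 2.35 and 3.94 CPM with DMSO and between 2.46 and 3.73 CPM with mocetinostat. Blood markers lay between 1.76 and 4.59 CPM and between 2.46 and 9.20 CPM, with *HBB* at 0 in all DMSO-treated samples.

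The antisense RNAs were mostly of low abundance. Their mean over the 6 samples ranged from 6.17 to 892 counts with a median of 24.7, against a median of 153 among the 13673 genes of the table that met the same count rule. The number of reads was lower than that of the partner gene in 144 pairs and higher in 41. Per kilobase of annotated exon, the RNA's mean level was above that of its partner in 40 of 186 pairs. At the edge of the rule, 10 RNAs had 10 counts in the sample that ranked 3 by count, among them *GATA6-AS1*, *STAM-AS1*, and *PXN-AS1*, with mean levels of at most 3.88 CPM with DMSO and between 0 and 2.54 CPM with mocetinostat. Just outside it, 17 -AS1 genes had 9 there, among them *RGMB-AS1*, *FUT8-AS1*, and *TMEM51-AS1*, with mean levels between 0.535 and 2.43 CPM and between 0.0654 and 5.76 CPM. By the GENCODE annotation of GRCh38, 190 of the 191 had a position, none lay on the strand of its partner, and 14 are now listed there as divergent transcripts (-DT). Over these 190, including those without such overlap, a median of 6.27% of exon bases lay opposite exons of a gene on the other strand. Such exons covered part of 160 of them, and more than 20% of the exon bases in 41. The sources used here do not state whether reads were counted by strand, so the reads of those bases cannot be assigned with certainty.

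Promoter sequences are described first, because several of the results below concern RNAs that share a promoter region with a partner. RefSeq lists a promoter window, from 250 bases before to 50 bases after the annotated start (GRCh38.p14), for 157 of the antisense RNAs, for 156 of the partners, and for 27305 genes in all. The median GC content of the windows was 64.7% for the antisense RNAs, 66.0% for the partners, and 58.3% for all genes, with a median of 26, 25, and 14 CpG dinucleotides. The GC box GGGCGG was found in 65.0% of the antisense windows, 67.3% of the partner windows, and 44.6% of all windows. The TATA box TATAAA was found in 4.46%, 6.41%, and 12.0%, and the CCAAT box CCAAT in 29.9%, 28.8%, and 35.7%. The ETS-type site CCGGAAGT was found in 7.64%, 7.69%, and 4.44%, the CRE palindrome TGACGTCA in 5.10%, 5.13%, and 1.98%, the AP-1 site TGACTCA in 3.82%, 2.56%, and 4.92%, and the NRF1 palindrome in 4.46%, 1.92%, and 1.36%. All were searched on both strands, and none of these motifs holds another whole. Among the RNAs called upregulated below, the CCAAT box was present in 5 of 23 windows (21.7%), among those called downregulated in 2 of 14 (14.3%), and among the others tested in 39 of 108 (36.1%). These are descriptions of letters, not of bound sites.

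At a pair of loci the RefSeq windows of an antisense RNA and its partner differed in GC content, and both loci are taken up again below. Each line holds the window, 5′ to 3′ on the strand of the named gene, without bases annotated as a coding gene's UTR or coding sequence. Capitals mark GC boxes and CCAAT boxes on either strand. The stretches are chr3:14948392-14948691, minus strand, for *FGD5-AS1*; chr3:14818712-14818955, plus strand, for *FGD5*; chr5:112160276-112160575, plus strand, for *EPB41L4A-AS1*; and chr5:112419278-112419527, minus strand, for *EPB41L4A*.
FGD5-AS1: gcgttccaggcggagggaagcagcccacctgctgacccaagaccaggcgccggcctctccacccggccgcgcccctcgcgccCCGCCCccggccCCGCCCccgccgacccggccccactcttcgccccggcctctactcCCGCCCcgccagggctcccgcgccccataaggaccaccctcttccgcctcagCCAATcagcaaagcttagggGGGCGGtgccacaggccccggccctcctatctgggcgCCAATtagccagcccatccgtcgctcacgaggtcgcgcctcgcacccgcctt
FGD5: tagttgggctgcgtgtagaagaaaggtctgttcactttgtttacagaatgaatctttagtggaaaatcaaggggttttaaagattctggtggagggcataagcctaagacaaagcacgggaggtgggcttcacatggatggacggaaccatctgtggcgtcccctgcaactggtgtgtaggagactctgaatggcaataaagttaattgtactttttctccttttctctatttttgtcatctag
EPB41L4A-AS1: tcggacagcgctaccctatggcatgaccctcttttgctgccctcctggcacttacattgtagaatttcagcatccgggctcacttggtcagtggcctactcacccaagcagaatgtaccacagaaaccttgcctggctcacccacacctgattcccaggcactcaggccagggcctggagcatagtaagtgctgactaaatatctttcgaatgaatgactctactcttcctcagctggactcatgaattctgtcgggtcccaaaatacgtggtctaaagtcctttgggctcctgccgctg
EPB41L4A: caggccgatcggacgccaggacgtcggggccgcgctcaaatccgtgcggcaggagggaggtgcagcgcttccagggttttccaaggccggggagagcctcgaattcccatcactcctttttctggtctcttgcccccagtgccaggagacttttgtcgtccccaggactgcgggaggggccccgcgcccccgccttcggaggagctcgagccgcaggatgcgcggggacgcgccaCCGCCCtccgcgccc
The RefSeq start used for *FGD5* lies downstream of the start of the GENCODE gene, at 14810853. The *FGD5* window therefore lies inside that gene and may not be the promoter of the transcripts counted here. The full window of *FGD5-AS1* had a GC content of 74.7% with 32 CpG dinucleotides, and that of *FGD5* 45.3% with 6. At the other locus the order was the opposite, with 52.3% and 7 for *EPB41L4A-AS1* and 71.7% and 35 for *EPB41L4A*.

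Mocetinostat treatment moved antisense RNAs in both directions. Of the 191, 176 passed edgeR's expression filter and were tested in a fit across all 13966 genes that passed. Calls of up- or downregulation needed both an adjusted p under 0.05 (quasi-likelihood test, Benjamini-Hochberg over all genes tested) and an absolute log2 fold change over 1, and "rose" and "fell" are used below for an adjusted p under 0.05 alone. Of the tested antisense RNAs, 27 (15.3%) were called upregulated and 17 (9.66%) downregulated, beside 20.2% and 8.18% of all genes tested. The selection by counts bears on these numbers. Of the 12 tested RNAs that reached 10 counts in DMSO-treated samples only, 8 were called downregulated and 0 upregulated, and of the 65 with at least 10 counts in all 6 samples, 9 were called upregulated and 2 downregulated. The expression filter asked for about 2.01 CPM of total counts in 3 samples. The 5 antisense RNAs that reached it in the 3 mocetinostat samples and in no DMSO sample were all called upregulated, and the 4 that reached it in the 3 DMSO samples only were all called downregulated, directions that the filter fixed. Among the 13455 tested genes that met the same count rule, the shares were 17.8% and 8.48%, and among the 166 tested partner genes 15.7% and 7.23%. Without the fold limit, 32 antisense RNAs rose and 38 fell, beside 33.0% and 31.5% of all genes. With libraries scaled to their *GAPDH* count, which moves the median of all genes by 0.54 on the log2 scale, 51 antisense RNAs were called upregulated and 5 downregulated, and without the fold limit 68 rose and 7 fell, beside 55.4% and 9.94% of all genes. Without the expression filter, where the median of all genes moved by -0.25, the numbers were 16 and 30 of 191. All genes had 3156 and 2098 such calls among 40504 tested. DESeq2, the tool used by the study, called 18 upregulated and 8 downregulated, beside 3419 and 1178 of 20620 genes tested. Of these antisense RNAs, 18 and 6 carried the same call in the edgeR fit. The median log2 fold change was -0.05, with quartiles of -0.57 and 0.64, and the median over all genes tested was -0.0021.

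**Figure D1:**
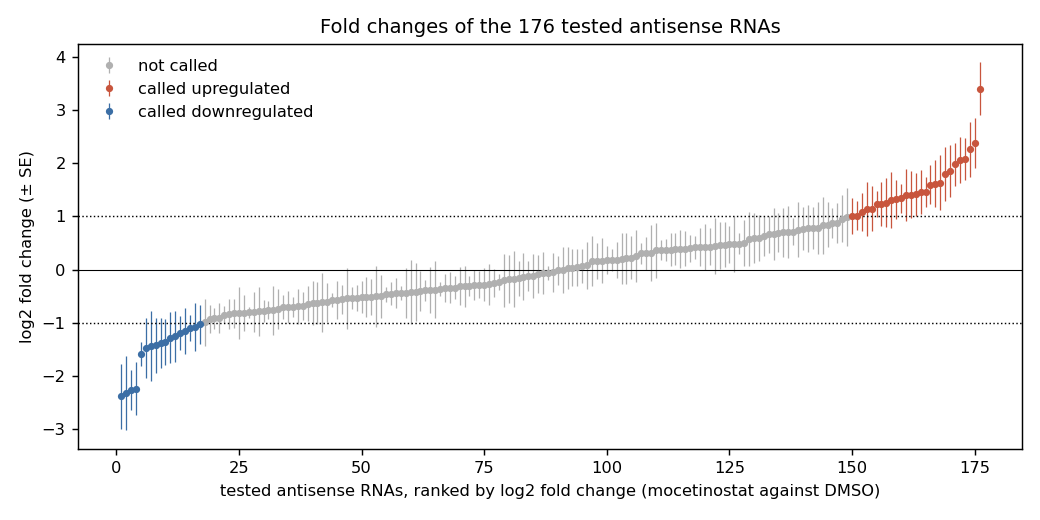
Log2 fold change (vertical axis, mocetinostat against DMSO) of the 176 tested antisense RNAs in order of size (horizontal axis); points are edgeR estimates, bars are ± 1 standard error, and dotted lines mark log2 fold changes of -1 and 1. The 27 RNAs called upregulated end at 3.40 and the 17 called downregulated at -2.38, and the other 132 run through 0 between them.

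The antisense RNAs were measured less precisely than most genes. The median standard error was 0.38 for the antisense RNAs on the log2 scale and 0.17 for all genes tested. In 34 of the tested antisense RNAs the 3 mocetinostat-treated samples all exceeded the 3 controls, and in 43 they all lay below them, beside 33.5% and 33.2% of all genes tested. The smallest exact two-sided permutation p that a comparison of 3 and 3 samples allows is 0.1. Among the 40 with a mean of at least 50 counts, 3 rose and 20 fell, with a median log2 fold change of -0.45. Of the 10167 genes of the table with as many counts, 27.3% rose and 40.8% fell, with a median of -0.15. Among the 136 tested RNAs with fewer counts, 29 rose and 18 fell, with a median of 0.17, and of the 3288 tested genes in that range 42.6% rose and 7.94% fell, with a median of 0.56. A gene with few counts passed the filter more easily when it was high in a whole condition, so these counts describe the tested RNAs and not all 191.

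The highest fold changes were in RNAs with few counts in DMSO-treated cells. *NECTIN3-AS1*, *RUNDC3A-AS1*, and *DIRC3-AS1* passed the filter through their mocetinostat samples alone, so they could only have been found higher. *NECTIN3-AS1* (ENSG00000242242, chromosome 3 from 110888384 to 111071553, minus strand), antisense to the gene of a cell adhesion molecule of the nectin family, held 12, 2, and 3 counts under DMSO and 52, 8, and 17 counts under mocetinostat. On the CPM scale all 3 treated samples (10.2, 4.91, and 6.97) lay above all 3 controls (1.08, 0.414, and 0.440). Its level rose from 0.645 ± 0.377 to 7.36 ± 2.67 CPM (SD, n = 3), with a log2 fold change of 3.40 (SE 0.49, adjusted p = 1.80e-09, edgeR), the highest of the 176. The partner *NECTIN3* rose less, from 28.9 ± 1.43 to 56.2 ± 6.21 CPM (SD, n = 3), with a log2 fold change of 0.97. Within each library, the antisense RNA therefore went from 3.54, 1.45, and 1.59 reads to 18.3, 9.76, and 11.1 reads per 100 reads of *NECTIN3*. The exons of the pair share no bases.

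*RUNDC3A-AS1* and *DIRC3-AS1* had the next highest fold changes. *RUNDC3A-AS1* held 22, 5, and 3 counts under DMSO and 41, 12, and 10 under mocetinostat, with a log2 fold change of 2.39 (SE 0.47, adjusted p = 5.21e-06, edgeR). Its partner *RUNDC3A* went from 3, 2, and 0 counts to 43, 10, and 17, at least 16.2-fold higher against a floor of 3 counts per library. *DIRC3-AS1* held 12, 5, and 5 counts under DMSO and 24, 6, and 13 under mocetinostat, and its level rose from 0.950 ± 0.189 to 4.57 ± 0.831 CPM (SD, n = 3). Its partner *DIRC3*, which is itself annotated as a lncRNA, held no more than 3 counts in any sample and was not tested. *SLC12A5-AS1*, antisense to the gene of a neuronal potassium-chloride cotransporter, held 23, 7, and 17 counts under DMSO and 47, 10, and 24 under mocetinostat, a log2 fold change of 2.07 (SE 0.39, adjusted p = 2.31e-06, edgeR). *SLC12A5* itself rose from 12.8 ± 2.47 to 34.4 ± 1.26 CPM (SD, n = 3), with a log2 fold change of 1.47. Exons of genes on the opposite strand, *MMP9* foremost, cover 27.9% of *SLC12A5-AS1*, so part of its reads cannot be assigned.

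Further increases stood beside partners with smaller or opposite changes. *RALY-AS1*, opposite the gene of an RNA-binding protein of spliceosomal complexes, rose from 5.25 ± 1.25 to 13.9 ± 2.54 CPM (SD, n = 3), with a log2 fold change of 1.46, while *RALY* had a log2 fold change of 0.21. *NOP14-AS1*, opposite the gene of a factor for small ribosomal subunit assembly, rose from 8.15 ± 1.31 to 19.2 ± 5.65 CPM (SD, n = 3), while *NOP14* fell from 131 ± 15.6 to 90.0 ± 3.62 CPM (SD, n = 3). Its reads per 100 reads of *NOP14* went from 5.88, 6.12, and 6.59 to 21.3, 26.8, and 15.6, with no overlap between the conditions. *ZMIZ1-AS1*, which starts 1071 bases away from the gene of a PIAS-like transcriptional coactivator and is transcribed away from it, rose from 2.04 ± 0.681 to 8.57 ± 2.31 CPM (SD, n = 3), with a log2 fold change of 1.98, while *ZMIZ1* had a log2 fold change of 0.09 (adjusted p = 0.343, edgeR). *CBR3-AS1* spans the gene of a carbonyl reductase and rose from 3.05 ± 1.53 to 9.70 ± 1.72 CPM (SD, n = 3; adjusted p = 5.82e-05, edgeR), while *CBR3* fell with a log2 fold change of -0.82 (adjusted p = 0.014). In reads per 100 reads of *CBR3* it moved from 36.0, 14.8, and 39.5 to 143, 173, and 200, so that the antisense RNA held fewer reads than the coding gene in every DMSO-treated sample and more in every mocetinostat-treated sample.

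**Figure D2:**
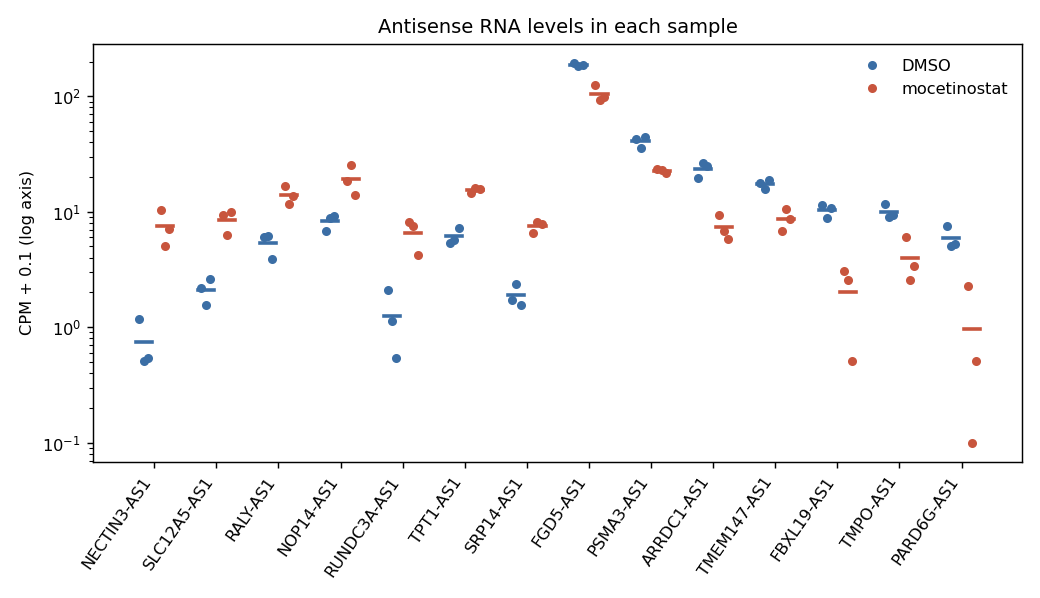
Level of 14 antisense RNAs in each of the 6 samples, in CPM plus 0.1 on a log axis; blue points are DMSO-treated and red points mocetinostat-treated samples, and short lines are group means (n = 3). The 7 RNAs on the left lie higher with mocetinostat in all 3 samples and the 7 on the right lie lower, from *FGD5-AS1* near 188 CPM to *PARD6G-AS1*, which held 0 counts in mocetinostat replicate 2.

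*TPT1-AS1* and *SRP14-AS1* belong to head-to-head pairs, in which the antisense RNA and the coding gene start 61 bases apart and run in opposite directions. The stretch of each promoter window that is free of annotated untranslated regions of coding genes is given 5′ to 3′ on the strand of the antisense RNA, with the same capitals as above, for chr13:45341285-45341394, plus strand, and chr15:40039182-40039360, plus strand; the latter RNA is listed in RefSeq as SRP14-DT.
TPT1-AS1: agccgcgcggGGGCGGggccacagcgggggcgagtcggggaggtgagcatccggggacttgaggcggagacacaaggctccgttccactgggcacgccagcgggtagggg
SRP14-AS1: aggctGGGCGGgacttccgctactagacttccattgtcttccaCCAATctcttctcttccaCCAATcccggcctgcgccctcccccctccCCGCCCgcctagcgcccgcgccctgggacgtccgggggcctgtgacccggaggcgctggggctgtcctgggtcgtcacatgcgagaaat
*TPT1-AS1*, next to the gene of translationally controlled tumor protein, rose from 6.03 ± 1.01 to 15.3 ± 0.854 CPM (SD, n = 3), with a log2 fold change of 1.34 (SE 0.27, adjusted p = 6.66e-06, edgeR). *TPT1* fell in the same samples from 697 ± 6.08 to 554 ± 33.4 CPM (SD, n = 3), with a log2 fold change of -0.32 (adjusted p = 3.44e-05, edgeR). *SRP14-AS1*, next to the gene of a subunit of the signal recognition particle, held 18, 11, and 10 counts under DMSO and 33, 13, and 19 under mocetinostat. It rose from 1.79 ± 0.431 to 7.41 ± 0.818 CPM (SD, n = 3), with a log2 fold change of 2.06 (SE 0.44, adjusted p = 2.07e-05, edgeR), while *SRP14* fell with a log2 fold change of -0.31 (adjusted p = 0.0012). The ratio of reads moved in every sample. *TPT1-AS1* went from between 0.755 and 1.03 to between 2.52 and 3.10 reads per 100 reads of *TPT1*, and *SRP14-AS1* from between 0.592 and 1.06 to between 3.49 and 4.74 per 100 reads of *SRP14*. Neither pair shares exon bases. A further pair of this kind, *RTCA-AS1* and *RTCA*, an RNA cyclase gene, start 34 bases apart and had log2 fold changes of 1.61 (adjusted p = 0.000897) and -0.30 (adjusted p = 0.0427) in the edgeR fit. In another, *UBL7-AS1* and *UBL7*, with starts 66 bases apart, both rose, with log2 fold changes of 1.02 and 0.49, and 56.4% of the exon bases of *UBL7-AS1* lie opposite exons of other genes.

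The decreases were led by *ARRDC1-AS1* (ENSG00000203993, chromosome 9 from 137615326 to 137618906, minus strand), which starts beyond the 3′ end of the gene of an arrestin-domain protein involved in vesicle budding. It held 217, 126, and 168 counts under DMSO and 47, 11, and 14 under mocetinostat, and fell from 23.4 ± 3.45 to 7.24 ± 1.79 CPM (SD, n = 3), with a log2 fold change of -1.58 (SE 0.23, adjusted p = 3.49e-09, edgeR). Its partner *ARRDC1* moved the other way, from 37, 15, and 20 counts to 62, 29, and 34, or from 3.12 ± 0.199 to 14.6 ± 2.88 CPM (SD, n = 3), with a log2 fold change of 2.17 (SE 0.32, adjusted p = 2.57e-09, edgeR). Among the 152 pairs with both genes tested, this was the only one whose genes were called in opposite directions. The antisense RNA held 587, 840, and 840 reads per 100 reads of *ARRDC1* with DMSO and 75.8, 37.9, and 41.2 with mocetinostat, so that the gene of the pair with more reads was not the same in both conditions. The exons of the pair share 0.986% of the bases of *ARRDC1-AS1*. The call of *ARRDC1-AS1* held in all 13 alternatives.

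*FBXL19-AS1* fell together with its partner. It held 125, 42, and 73 counts under DMSO and 15, 4, and 1 under mocetinostat, a log2 fold change of -2.26 (SE 0.38, adjusted p = 1.35e-07, edgeR), and *FBXL19*, an F-box protein gene whose product binds unmethylated CpG DNA, fell from 66.4 ± 13.3 to 13.4 ± 2.32 CPM (SD, n = 3), with a log2 fold change of -2.22. The starts of the pair lie 214 bases apart, in overlapping 5′ ends, and its read ratio overlapped between the conditions (from 12.5 to 21.7 with DMSO and from 3.45 to 20 with mocetinostat, per 100 reads). *TMPO-AS1*, opposite the gene of a nuclear lamina-associated protein, fell with *TMPO*, both with a log2 fold change of -1.18, from 9.92 ± 1.48 to 3.87 ± 1.79 CPM and from 373 ± 10.7 to 163 ± 11.8 CPM (SD, n = 3). Exons of *TMPO* cover 19.2% of *TMPO-AS1*.

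Other decreases occurred without a call in the partner. *PARD6G-AS1*, which starts beyond the 3′ end of a cell polarity gene, held 83, 24, and 35 counts under DMSO and 11, 0, and 1 under mocetinostat, a log2 fold change of -2.24 (SE 0.50, adjusted p = 4.63e-05, edgeR), while *PARD6G* had a log2 fold change of 0.29 (adjusted p = 0.292). *PPP3CB-AS1*, opposite the gene of a catalytic subunit of calcineurin, held 59, 10, and 29 counts under DMSO and 5, 2, and 0 under mocetinostat, the lowest fold change of all (log2 fold change of -2.38), although 33.9% of its exon bases lie opposite exons of other genes, *USP54* foremost. *PPP3CB* itself rose, with a log2 fold change of 0.37 (adjusted p = 0.0402, edgeR). *CARD8-AS1*, at the gene of an inflammasome sensor, fell from 38, 15, and 15 counts to 1, 3, and 1, at least 2.39-fold lower against the floor of 3 counts per library, and *CARD8* fell with a log2 fold change of -0.98. *PPP3CB-AS1* and *CARD8-AS1* passed the filter through their DMSO samples alone, so they could only have been found lower. *TMEM147-AS1*, *CD27-AS1*, *RNF213-AS1*, and *FOXD2-AS1* had log2 fold changes of -1.10, -1.36, -1.38, and -1.03. *CD27*, a receptor of lymphocytes, held at most 1 count in any sample, whereas *CD27-AS1* held 88, 16, and 38 counts under DMSO and 13, 2, and 6 under mocetinostat. *RNF213*, an E3 ubiquitin ligase gene, rose by a log2 fold change of 0.49 while its antisense RNA fell. These calls were less stable: without DMSO replicate 1, *CD27-AS1* was no longer called (log2 fold change of -1.02, adjusted p = 0.0954, edgeR). Without mocetinostat replicate 1, neither were *TMEM147-AS1*, *CARD8-AS1*, *RNF213-AS1*, and *FOXD2-AS1*, at log2 fold changes of -0.90, -1.53, -1.16, and -0.77. The log2 fold change of *PARD6G-AS1* ranged from -4.49 to -1.69 over the alternatives.

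Of the 15 antisense RNAs that were not tested, several had few counts with mocetinostat. *SPART-AS1* held 14, 10, and 13 counts under DMSO and 0 in all mocetinostat-treated samples, at least 1.43-fold lower against the floor, which is 3 counts in libraries that were shallower than the controls. *NDUFB2-AS1* held 15, 21, and 17 counts and then 2, 1, and 0, at least 2.24-fold lower. The depth of the mocetinostat-treated libraries allows no closer estimate for either.

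The pairs were then compared as a whole, to ask whether an antisense RNA and its partner moved together. Over the 152 pairs with both genes tested, the log2 fold changes had a Pearson's r of 0.149 and a Spearman's rho of 0.157 across pairs, which share the 6 libraries and are not independent. The sign was the same in 83 pairs and opposite in 69. Both genes had an adjusted p under 0.05 in 51 pairs, in 14 both higher and in 19 both lower, while in 7 the antisense RNA fell and the partner rose, and in 11 the antisense RNA rose and the partner fell. Among the 27 antisense RNAs called upregulated, the partner was called upregulated in 5, downregulated in 0, not called in 20, and not tested in 2. Among the 17 called downregulated, the partner was called downregulated in 2, upregulated in 1, not called in 13, and not tested in 1. Where the antisense RNA was tested without a call, 18 partners were called upregulated, 9 downregulated, 84 not called, and 18 not tested. Another 3 were absent from the count table. Of all 166 tested partners, 15.7% were called upregulated and 7.23% downregulated, beside 20.2% and 8.18% of all genes tested.

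**Figure D3:**
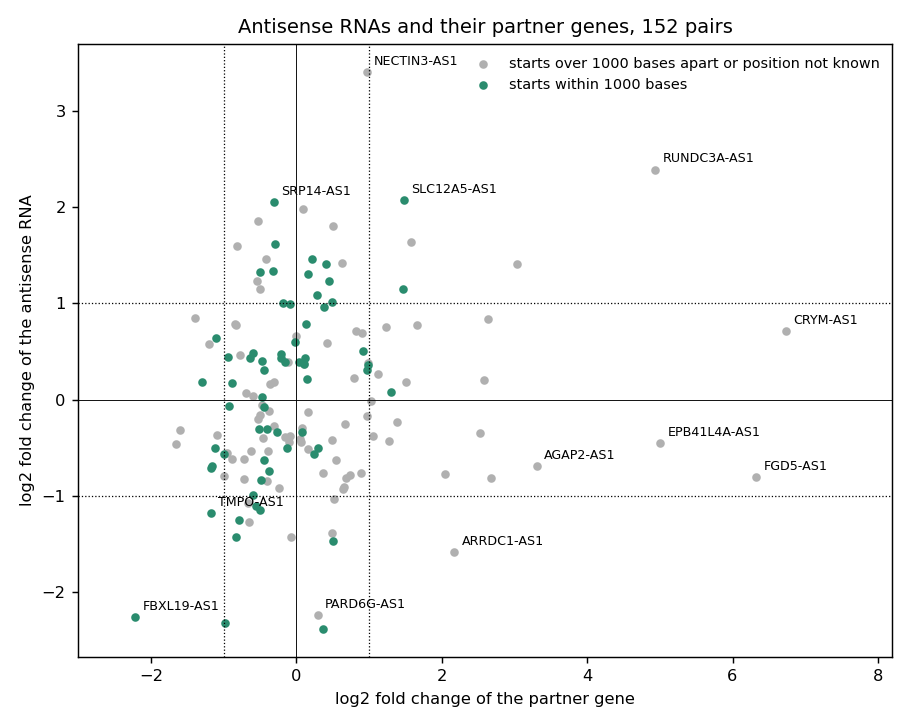
Log2 fold change of each antisense RNA (vertical axis) against that of its partner gene (horizontal axis) for the 152 pairs with both tested, green where the 2 starts lie within 1000 bases; dotted lines mark log2 fold changes of -1 and 1. Several partners at the far right (*FGD5*, *CRYM*, *EPB41L4A*, *AGAP2*) had a log2 fold change over 3 beside an antisense RNA between -0.80 and 0.71, and *ARRDC1-AS1* stands alone in the lower right.

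Further pairs were called upregulated together. *SNAP25-AS1*, which spans the gene of a SNARE protein of neurotransmitter release, held 23, 3, and 5 counts under DMSO and 20, 4, and 13 under mocetinostat, a log2 fold change of 1.64 (adjusted p = 0.0038, edgeR), and *SNAP25* rose from 10.9 ± 2.95 to 33.0 ± 7.45 CPM (SD, n = 3), with a log2 fold change of 1.58. *SNAP25* was one of the neuronal markers whose sum was higher with mocetinostat, as given above, mostly through *SNAP25* and *MAP2*. The part of such markers in the change of *SNAP25-AS1* was not tested. *ATP2C2-AS1*, opposite the gene of a calcium pump of the secretory pathway, had a log2 fold change of 1.41 (adjusted p = 0.0086, edgeR), but its samples overlapped (12, 8, and 16 counts under DMSO and 34, 2, and 8 under mocetinostat), 64.3% of its exon bases lie opposite exons of *ATP2C2*, and without mocetinostat replicate 1 its log2 fold change was 0.54 and the call was lost, as it was without DMSO replicate 1 (1.06, adjusted p = 0.088, edgeR). *HMGN3-AS1* and *HMGN3*, a nucleosome-binding protein gene, were both called upregulated with log2 fold changes of 1.14 and 1.47, but the samples of *HMGN3-AS1* overlapped, with 1.44, 1.24, and 2.20 CPM under DMSO and 3.14, 1.23, and 6.15 CPM under mocetinostat.

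In another set of pairs the partner appeared from almost nothing while the antisense RNA was already present. In 17 pairs the partner held 3 counts or fewer in each DMSO-treated sample. Only 4 of these partners were tested, having passed the filter through their mocetinostat counts, so they could only have been found higher. *FGD5-AS1* (ENSG00000225733, chromosome 3 from 14920347 to 14948424, minus strand) was the most abundant of the 191 antisense RNAs by counts, with 2158, 882, and 1281 counts under DMSO and 641, 150, and 238 under mocetinostat. It fell from 188 ± 5.80 to 105 ± 18.1 CPM (SD, n = 3), with no overlap between conditions and a log2 fold change of -0.80 (SE 0.098, adjusted p = 5.22e-12, edgeR), short of the fold limit for a call. *FGD5*, a guanine nucleotide exchange factor gene best known in endothelial cells, held 0, 2, and 1 counts under DMSO and 56, 13, and 45 under mocetinostat, at least 28.1-fold higher against the floor. By GENCODE the starts lie 137571 bases apart, and exons of *FGD5* cover 2.91% of those of the antisense RNA. The endothelial markers *PECAM1*, *VWF*, and *CDH5* summed to at most 22.5 CPM in any sample, and their part in the change of *FGD5* was not tested.

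The same layout held for *EPB41L4A-AS1*, with 214, 85, and 123 counts under DMSO and 59, 20, and 41 under mocetinostat (log2 fold change of -0.46, adjusted p = 0.0571, edgeR), whose partner *EPB41L4A*, a gene of the band 4.1 family, went from 1, 2, and 1 counts to 23, 14, and 18, at least 15.4-fold higher. Exons of *EPB41L4A* cover 51.2% of this antisense RNA, so that without strand the reads of one may be counted for the other. *CRYM-AS1* held 25, 6, and 18 counts under DMSO and 16, 8, and 7 under mocetinostat (log2 fold change of 0.71, adjusted p = 0.198, edgeR), while *CRYM*, the gene of a thyroid hormone-binding protein, went from 2, 0, and 0 counts to 65, 14, and 31, at least 25.6-fold higher. The exons of that pair share no bases. *AGAP2-AS1* went from 746, 444, and 353 reads per 100 reads of *AGAP2*, an Arf GTPase-activating protein gene, to 47.8, 14.7, and 22.2, with a log2 fold change of -0.69 (adjusted p = 0.0647) beside 3.31 for *AGAP2*. Its exon bases lie opposite those of *AGAP2* by 57.7%.

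At *CDKN2B*, which encodes the cell cycle inhibitor p15, the antisense RNA fell and the coding gene rose. *CDKN2B-AS1* held 258, 134, and 161 counts under DMSO and 80, 17, and 37 under mocetinostat, and fell from 24.9 ± 2.51 to 13.8 ± 2.90 CPM (SD, n = 3), with a log2 fold change of -0.77 (SE 0.20, adjusted p = 0.000431, edgeR), but with *GAPDH* scaling its log2 fold change was -0.24 (adjusted p = 0.315, edgeR). *CDKN2B* went from 516, 257, and 391 counts to 1021, 383, and 509, a log2 fold change of 2.04 (SE 0.10, adjusted p = 6.23e-35, edgeR). The antisense RNA held from 41.2 to 52.1 reads per 100 reads of *CDKN2B* with DMSO and from 4.44 to 7.84 with mocetinostat. The pair shares no exon bases. *LOXL1-AS1*, opposite the gene of a lysyl oxidase-like enzyme of elastic fibers, fell from 13.6 ± 2.52 to 6.93 ± 2.57 CPM (SD, n = 3) while *LOXL1* rose from 42.5 ± 5.96 to 66.5 ± 4.70 CPM (SD, n = 3), although the adjusted p of *LOXL1-AS1* was 0.206 with *GAPDH* scaling (edgeR). Its reads per 100 reads of *LOXL1* were 35.6, 28.2, and 32.3 with DMSO and 10.8, 5.98, and 15.0 with mocetinostat. At *MSC*, the gene of a basic helix-loop-helix repressor, both genes fell but not alike, with log2 fold changes of -0.46 for *MSC-AS1* and -1.66 for *MSC*, and the antisense RNA went from 65.3, 71.2, and 63.7 to 172, 141, and 135 reads per 100 reads of *MSC*.

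**Figure D4:**
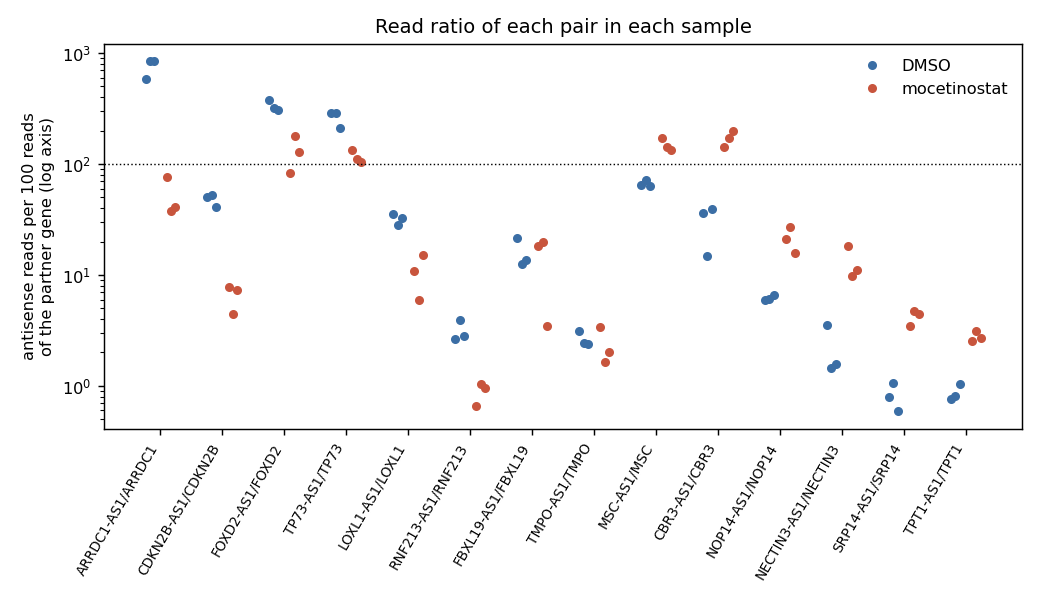
Reads of 14 antisense RNAs per 100 reads of the partner gene in each of the 6 samples, on a log axis; blue points are DMSO-treated and red points mocetinostat-treated samples, and the dotted line marks equal numbers. The ratio fell in all 3 treated samples for *ARRDC1-AS1* and *CDKN2B-AS1*, rose in all 3 for *CBR3-AS1*, *SRP14-AS1*, and *TPT1-AS1*, and overlapped between conditions for *FBXL19-AS1* and *TMPO-AS1*.

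The antisense RNAs that have been studied by themselves were also described as a list. Of 35, 21 were among the 191, 20 were tested, 10 fell and 0 rose (31.5% and 33.0% of all genes tested), 2 were called downregulated (*TMPO-AS1* and *FOXD2-AS1*, above), and the median log2 fold change was -0.38. This balance depended on the scaling. With *GAPDH* scaling, 1 of the 20 fell (*FGD5-AS1*) and 5 rose, *ZEB1-AS1* (log2 fold change of 1.13), *GATA6-AS1* (1.53), and *ZFPM2-AS1* (1.20), which were also called upregulated, and *ASB16-AS1* (0.96) and *KTN1-AS1* (0.93). *PSMA3-AS1*, at a proteasome subunit gene, fell from 40.9 ± 4.42 to 22.7 ± 0.912 CPM (SD, n = 3), with a log2 fold change of -0.84 (adjusted p = 3.32e-06, edgeR). *TP73-AS1*, at the gene of a p53 family member, fell from 36.6 ± 2.43 to 21.4 ± 2.58 CPM (SD, n = 3), with a log2 fold change of -0.76, while *TP73* had a log2 fold change of 0.36 (adjusted p = 0.132). *NNT-AS1* fell with a log2 fold change of -0.71 (adjusted p = 0.0348), and its partner, the mitochondrial transhydrogenase gene *NNT*, was called downregulated at -1.18. *OIP5-AS1*, known for its interaction with microRNAs, fell from 71.6 ± 9.77 to 56.3 ± 4.21 CPM (SD, n = 3), with a log2 fold change of -0.36 (adjusted p = 0.008), and *PCBP1-AS1* fell with a log2 fold change of -0.53 (adjusted p = 0.0156), but with libraries scaled to *GAPDH* both fold changes turned to 0.17 and 0.0023. The log2 fold changes of *ZEB1-AS1* (0.59), *GATA6-AS1* (0.99), *ZFPM2-AS1* (0.66), *ASB16-AS1* (0.42), *KTN1-AS1* (0.39), *HOXB-AS1* (0.32), and *MCM3AP-AS1* (0.04) did not pass the test with TMM, nor did those of *TTN-AS1* (-0.34), *SLC16A1-AS1* (-0.39), and *A1BG-AS1* (-0.28), and *SBF2-AS1* was not tested.

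By level per kilobase of annotated exon, *EMC3-AS1* (36.7 CPM per kilobase), *FGD5-AS1* (24.3), *PITPNA-AS1* (9.92), and *SLC9A3-AS1* (7.06) stood near the top, below *SVIL-AS1* (139), whose annotated exon in the release used is so short that its length may not be the one that was counted. The exons of *EMC3-AS1* are also short there (534 bases, against a median of 5326 for the antisense RNAs), so its place is uncertain too. That release lists *EMC3-AS1* as a transcribed pseudogene, and 26.2% of its exon bases lie in exons of other genes on the same strand. *EMC3-AS1*, inside a gene of the endoplasmic reticulum membrane complex, fell from 25.8 ± 2.56 to 13.4 ± 1.72 CPM (SD, n = 3), with a log2 fold change of -0.91 (SE 0.20, adjusted p = 3.73e-05, edgeR; 0.101 with *GAPDH* scaling), while *EMC3* had a log2 fold change of -0.24 (adjusted p = 0.123). The fold changes of the other 3 of these that were not yet given, 0.19 for *PITPNA-AS1*, -0.23 for *SLC9A3-AS1*, and 0.37 for *SVIL-AS1*, did not pass the test. *ENTPD1-AS1*, with 549, 217, and 349 counts under DMSO and 222, 78, and 121 under mocetinostat, was an abundant RNA whose level differed little, from 48.5 ± 3.21 to 47.0 ± 3.11 CPM (SD, n = 3), with a log2 fold change of -0.06 (SE 0.13, adjusted p = 0.731, edgeR).

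The pairs were also grouped by their arrangement. The antisense RNA overlapped the 5′ end of the partner in 81 pairs, overlapped its 3′ end in 43, ran away from it without overlap in 27, spanned it in 21, and lay within it in 13. The median log2 fold change of the tested antisense RNAs was 0.11 (76 RNAs), -0.03 (40), 0.21 (25), -0.44 (21), and -0.69 (9) in that order, and 13, 7, 5, 2, and 0 were called upregulated and 9, 3, 3, 0, and 2 downregulated, beside 20.2% and 8.18% of all genes tested. When the starts lay within 1000 bases of each other (72 pairs), 14 of the 66 tested antisense RNAs were called upregulated and 9 downregulated, with a median of 0.26, and the partners had a median of -0.30. When the starts lay further apart (114 pairs), 13 of 106 were called upregulated and 8 downregulated, with a median of -0.22, and the partners had a median of 0.13. Across the 63 nearby pairs with both genes tested, Spearman's rho between the log2 fold changes was 0.447, and across the 88 distant pairs 0.057. Of the nearby pairs, 7 were higher together and 12 lower together at an adjusted p under 0.05, and 6 had a higher antisense RNA with a lower partner, among them those of *TPT1*, *SRP14*, *RTCA*, and *PSMG3*. The difference between the groups was not tested, since pairs are not replicates, and 46 of the nearby and 93 of the distant pairs share exon bases.

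**Figure D5:**
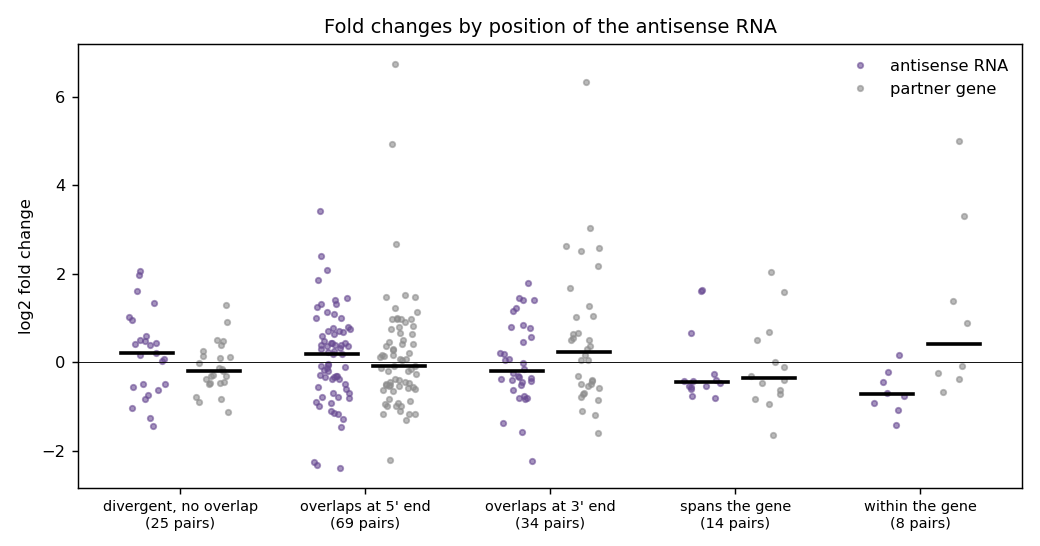
Log2 fold change (vertical axis) of antisense RNAs (purple) and their partner genes (gray) in the pairs with both tested, grouped by the arrangement of the pair (horizontal axis, number of pairs in each group); each point is a gene and black lines are medians. The groups overlap widely, and the 2 highest partners (6.73 and 6.33) lie in the groups that overlap at the 5′ and the 3′ end.

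The genes of the nuclear RNA exosome and its cofactors, which degrade unstable antisense RNAs, were measured in the same samples. Of 27 genes, all tested, 17 fell, 1 rose (*ZCCHC7*, log2 fold change of 0.41), and 9 did neither, with a median log2 fold change of -0.49, and 7 were called downregulated and 0 upregulated, beside 8.18% and 20.2% of all genes tested. Those called were the exosome subunits *EXOSC5* (log2 fold change of -1.08), *EXOSC6* (-1.06), *EXOSC8* (-1.55), and the nuclease *EXOSC10* (-1.43), the adaptor subunit *ZCCHC8* (-1.05), the poly(A)-binding protein gene *PABPN1* (-1.09), and *NRDE2* (-1.10). The helicase *MTREX*, which feeds RNA to the exosome, fell with a log2 fold change of -0.73. With libraries scaled to *GAPDH*, 1 of the 27 was called downregulated. Their part in the changes of the antisense RNAs was not tested.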

How the data were processed

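RNA was sequenced from 3 DMSO-treated and 3 mocetinostat-treated samples of TC28a2 cells. The authors deposited 1 table of whole raw counts per gene, without normalization: per the submitters' processing notes and the study's methods, total RNA libraries depleted of ribosomal RNA were read as single reads, trimmed, cleared of ribosomal reads, aligned to GRCh38 with STAR 2.6.1d, and counted with featureCounts 1.6.4. The strand setting and the treatment of reads shared by several genes are not given in the sources used here. The members and lists were chosen with earlier results of these data known, so counts over them are descriptions.

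edgeR 4.0.16 in R 4.3.3 computed TMM factors and CPM, kept 13966 of 60623 genes with filterByExpr (minimum count of 10), and fitted a robust quasi-likelihood model with treatment as the only term. P-values were adjusted over all genes tested. Pairs of replicates differed by more than sampling noise (chi-square per degree of freedom between 1.93 and 7.95), which does not by itself show that samples are independent. Each sample was counted as a replicate because the study describes independent experiments. The biological coefficient of variation was 9.30%. A floor of 3 counts per library was used where a group held 3 counts or fewer, and it covers counting error only. Positions and exon overlaps came from GENCODE release 44, which held 99.5% of the table's identifiers, and promoter windows from RefSeq (GRCh38.p14). Summaries and plots were made in Python 3.11.15 (pandas 2.3.3, matplotlib 3.10.9). The fits were tested on simulated counts.

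The antisense RNAs named are the 10 called in each direction with the smallest p, those with the highest or lowest fold changes, pairs called in opposite directions, the 6 pairs called in the same direction with the smallest p, the 5 highest per kilobase of exon, those of a list of 35 studied RNAs, those at the edge of the count rule, and the partners of all of these. *RTCA-AS1*, *UBL7-AS1*, *HMGN3-AS1*, *PSMG3-AS1*, *SPART-AS1*, *NDUFB2-AS1*, *EPB41L4A-AS1*, *CRYM-AS1*, *AGAP2-AS1*, *MSC-AS1*, and *ENTPD1-AS1*, the members of the closing section, and the sequences printed were chosen after their values were seen. The alternatives were DESeq2 1.42.0, library scaling by RLE, by total alone, or by *GAPDH*, omission of the filter, a block on the replicate number, thinning of every library to 1619344 counts, and omission of each sample in turn.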

Additional observations from a re-analysis of the deposited data

How the results depend on the processing

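With 22 of the named antisense RNAs called in the edgeR fit, all 22 were also called with RLE size factors, with library size only, and with the replicate number as a block; DESeq2 called 16 of them, *GAPDH* scaling 17, no filter 19, and thinned libraries 10, where 12 of the 22 were still tested. With the block, 26 antisense RNAs were called upregulated and 15 downregulated, beside 2799 and 1133 of the 13966 genes tested. Whether the replicate numbers pair the samples could not be decided. Same-numbered samples correlated at 0.0078, 0.012, and -0.016 in their deviations, and not every sample correlated best with its own number. Counting noise in shallow libraries can hide a pairing from such a comparison. With DESeq2, 18 antisense RNAs were called upregulated and 8 downregulated, and 18 and 6 of these had the same call with edgeR. With *GAPDH* scaling, 51 antisense RNAs were called upregulated and 5 downregulated, 48 partners upregulated and 3 downregulated, 4426 of all genes upregulated and 284 downregulated, and 1 RNA exosome gene downregulated, so that 94.0% of all calls were upregulated against 71.2% with TMM. Without the filter, 16 antisense RNAs were called upregulated and 30 downregulated, with 27 partners and 2098 of all genes downregulated. After thinning, which left 82 antisense RNAs tested, 9 were called upregulated, 8 downregulated, and 11 among those named. Of all 11713 genes tested after thinning, 2137 were called upregulated and 885 downregulated. The causes of these differences between settings were not tested. Leaving out 1 sample at a time gave between 22 and 27 antisense RNAs called upregulated and between 13 and 20 downregulated, and between 19 and 23 called among those named. For all genes, the same fits gave between 2842 and 3220 called upregulated and between 1175 and 1266 downregulated.

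Calls were lost for *CARD8-AS1*, *CD27-AS1*, *RNF213-AS1*, *FOXD2-AS1*, *SNAP25-AS1*, and *ATP2C2-AS1* with DESeq2, for *TMEM147-AS1*, *TMPO-AS1*, *CD27-AS1*, *RNF213-AS1*, and *FOXD2-AS1* with *GAPDH* scaling, for *NOP14-AS1*, *SNAP25-AS1*, and *ATP2C2-AS1* without the filter, and for *TMEM147-AS1* (-0.87) and *FOXD2-AS1* (-0.88) after thinning. Calls were gained upward for *ZEB1-AS1*, *GATA6-AS1*, and *ZFPM2-AS1* with *GAPDH* scaling, and downward for *EMC3-AS1*, *FGD5-AS1*, *LOXL1-AS1*, *PSMA3-AS1*, *TP73-AS1*, and *CDKN2B-AS1* without the filter, for *LOXL1-AS1* after thinning and without DMSO replicate 2 or mocetinostat replicate 3, and for *EMC3-AS1* and *NNT-AS1* without mocetinostat replicate 1. The log2 fold change changed sign for *SLC9A3-AS1* (0.30), *OIP5-AS1* (0.17), *PCBP1-AS1* (0.0023), *TTN-AS1* (0.20), *SLC16A1-AS1* (0.15), and *A1BG-AS1* (0.25) with *GAPDH* scaling, for *A1BG-AS1* (0.12) after thinning, and for *PITPNA-AS1* (-0.056) and *MCM3AP-AS1* (-0.21) without the filter. *MCM3AP-AS1* also turned to -0.033 with DESeq2, and leaving out 1 sample gave -0.20 without DMSO replicate 1, -0.0038 without mocetinostat replicate 1, and -0.086 without mocetinostat replicate 3. *PITPNA-AS1* turned to -0.024 without DMSO replicate 1. With 1 sample left out, *PITPNA-AS1* lay between -0.024 and 0.34 and *MCM3AP-AS1* between -0.20 and 0.13. None of these reversed fold changes had an adjusted p under 0.05. The depth of the mocetinostat-treated libraries limits what can be seen of RNAs near 10 counts.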

Other observations

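The count rule left out 936 -AS1 genes, of which 16 still passed edgeR's filter, 10 were called upregulated, and 0 downregulated, and the median log2 change was 1.99; at that level a gene passed the filter mainly through the samples in which it was high, so the direction of these calls is partly set by the filter. The highest was *B3GALT5-AS1*, with 4, 0, and 0 counts under DMSO and 22, 12, and 6 under mocetinostat. *UPK1A-AS1*, opposite the gene of a urothelial membrane protein, held at most 3 counts in each DMSO-treated sample and 18, 7, and 8 counts under mocetinostat, at least 8.34-fold higher against the floor of 3 counts per library. *HAND2-AS1*, next to the gene of a transcription factor of heart and limb development, held 4, 5, and 1 counts under DMSO and 27, 13, and 5 under mocetinostat, a log2 fold change of 3.40 (SE 0.61, adjusted p = 6.12e-07, edgeR). *B3GALT5-AS1*, *UPK1A-AS1*, and *HAND2-AS1* passed the filter through their mocetinostat samples alone, so they could only have been found higher. *SOX9-AS1*, upstream of the main transcription factor gene of chondrocytes, held 5, 13, and 5 counts under DMSO and 14, 7, and 1 under mocetinostat, and its samples overlapped (adjusted p = 0.117).

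Other classes of noncoding RNA that met the same count rule were measured in the same fit. Of 30 tested divergent transcripts (-DT), 10 (33.3%) were called upregulated and 1 (3.33%) downregulated (median log2 fold change 0.67). Of 86 tested LINC genes, the calls were 20 (23.3%) and 5 (5.81%), at a median of 0.12. Of 9 tested -AS2 or -AS3 genes, 2 were called upregulated and 1 downregulated. The -AS1 RNAs, with 27 (15.3%) and 17 (9.66%) calls, had a median of -0.05. The shares among all genes tested were 20.2% and 8.18%. Among tested genes that met the count rule with a mean under 50 counts, they were 38.5% and 5.93%. The median of mean counts was 25.1 for -DT and 21.8 for LINC genes. The differences between classes were not tested.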
